A study of Rattus norvegicus with 21 samples.

Results

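Interferon-gamma GTPases and tryptophan breakdown were followed through 6 genes: Gbp2, Gbp5, Igtp, Irgm and Ifi47, which encode GTPases, and Ido1, which encodes an enzyme of tryptophan catabolism. The genes were listed by name, and each was read from a single-symbol probe set, the one that was brightest on average across the 21 arrays. Of the 6 genes, 4 had such a probe set, out of 13438 genes that did: Gbp2 (Entrez 171164), Igtp (303163), Irgm (303090) and Ido1 (66029). Gbp5 (362050) and Ifi47 (246208) were named by no probe set in the annotation used and were not analysed here as transcripts.

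The cells were INS-1, which derive from a rat insulinoma and often stand in for pancreatic beta cells, measured on Affymetrix arrays in 7 groups of 3. Line pCTSH#1 is 1 individual clone that stably overexpresses cathepsin H (CTSH), a lysosomal protease, and line pcDNA carries the empty vector. Both were measured at 0, 6 and 16 h of exposure to 2 recombinant cytokines, mouse IL-1β at 150 pg/ml and rat IFNγ at 5 ng/ml. Untransfected INS-1 cells (INS1) were measured without cytokines only. Arrays without cytokines exist at 0 h alone, so the effect of the cytokines at 6 and 16 h cannot be told apart from that of time in culture. The 2 cytokines were always given together, so the effect of IFNγ cannot be told apart from that of IL-1β. A single clone stands for CTSH overexpression, so the effect of CTSH cannot be told apart from other properties of that clone.

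Interferon-gamma binds its receptor and activates JAK kinases, and the signal reaches genes through gamma-activated sites in DNA. It also induces the transcription factor IRF1, which binds interferon-stimulated response elements. Guanylate-binding proteins (GBPs, here Gbp2 and Gbp5) and immunity-related GTPases (IRGs, here Igtp, Irgm and Ifi47) are among the most strongly induced products in mouse cells. In the mouse they gather on vacuoles that hold intracellular pathogens, and GBPs there help open the vacuole or the microbe to the inflammasome. Ido1 encodes indoleamine 2,3-dioxygenase, which catalyses the first, rate-limiting step from tryptophan to kynurenine and thereby depletes tryptophan in the cell.

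Promoters of the measured GTPases are shown because all 3 rose with cytokines in both lines, and because the stretch before the start holds the sites through which the pathway is known to act. They are the 250 bases before the annotated start in RefSeq (build GRCr8), which matched 5 of the 6 genes, all but Ido1. Gbp2 lies at chr2:234005477-234005726 on the plus strand, Igtp at chr10:42874797-42875046 on the plus strand and Irgm at chr10:33742579-33742828 on the minus strand. Capitals mark matches to the gamma-activated site (TTCNNNGAA, the same on both strands) or to the interferon-stimulated response element (TTTC, any 2 bases and TTTC, or GAAA, any 2 bases and GAAA on the other strand).
Gbp2: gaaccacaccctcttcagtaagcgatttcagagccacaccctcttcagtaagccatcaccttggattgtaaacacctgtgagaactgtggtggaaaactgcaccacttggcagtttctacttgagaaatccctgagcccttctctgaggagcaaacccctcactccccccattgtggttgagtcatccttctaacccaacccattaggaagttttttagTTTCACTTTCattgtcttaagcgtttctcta
Igtp: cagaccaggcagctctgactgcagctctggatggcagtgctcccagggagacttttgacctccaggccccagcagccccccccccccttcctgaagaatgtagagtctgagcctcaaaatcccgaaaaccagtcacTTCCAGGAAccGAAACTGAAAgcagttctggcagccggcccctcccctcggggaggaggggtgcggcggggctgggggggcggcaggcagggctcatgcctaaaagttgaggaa
Irgm: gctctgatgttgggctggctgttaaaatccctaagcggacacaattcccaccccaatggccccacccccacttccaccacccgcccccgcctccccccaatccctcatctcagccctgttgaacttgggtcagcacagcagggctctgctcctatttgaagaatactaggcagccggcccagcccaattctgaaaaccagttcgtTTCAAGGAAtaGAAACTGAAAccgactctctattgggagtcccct

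The response element matched in 3.41% and the gamma-activated site in 7.67% of 33469 promoters of the same length. Gbp2 held 1 response element, TTTCACTTTC, 31 to 22 bases before the start, and no match to the gamma-activated site. Igtp held both, TTCCAGGAA at 114 to 106 and GAAACTGAAA at 103 to 94 bases before the start. Irgm held both as well, TTCAAGGAA at 45 to 37 and GAAACTGAAA at 34 to 25 bases before the start. In Igtp and in Irgm the gamma-activated site came first, 2 bases lay between the motifs, and the letters of the response element were the same. Of the genes without a probe set, Gbp5 held the response element TTTCAATTTC at 56 to 47 bases. Ifi47 held gamma-activated sites, TTCAGAGAA at 212 to 204 and TTCCTGGAA at 96 to 88 bases, and no match to the response element. In none of the 5 promoters did matches overlap. By the order of genes on GRCr8, Gbp2 and Gbp5 belong to 1 cluster of GBP genes on chromosome 2, Irgm and Ifi47 are neighbours on chromosome 10, and Igtp neighbours Irgm2 there. A match describes these letters and is not evidence that a factor was bound.

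Levels below are log2 intensities as the authors deposited them. They compare arrays within a gene and not genes with each other, since probe sets differ in brightness. Array medians lay between 4.88 and 5.08, and each array's brightest nonspecific control, taken as background, between 3.88 and 4.17. Ctsh itself (1 probe set) averaged 4.0, 4.07 and 4.45 at 0, 6 and 16 h in pCTSH#1 and 3.90, 3.67 and 3.79 in pcDNA, at or near background, so this probe set does not check the label of the pCTSH#1 arrays. The mean of 7 measured beta cell markers lay between 11.02 and 12.15 on every array, but markers moved with the cytokines. At 16 h against 0 h, 5 of 7 were lower in pCTSH#1 and 7 of 7 in pcDNA, where 25.6% and 25.1% of all probe sets were lower. Nkx6-1, a beta cell transcription factor, averaged 9.04, 6.07 and 5.26 at 0, 6 and 16 h in pCTSH#1 and 8.46, 5.32 and 5.45 in pcDNA, and Pdx1, another, 9.69, 9.45 and 7.96 in pCTSH#1 and 9.73, 9.22 and 7.74 in pcDNA. The part of this loss in the members' changes was not tested. At least 15 arrays had background readings for 7 of 9 leukocyte markers, among them Ptprc (20 of 21 arrays), Itgam and Csf1r (21 each), and for 4 of 5 endothelial and fibroblast markers. As the arrays read bulk RNA, fewer responding cells and less RNA per cell cannot be told apart.

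**Figure D1:**
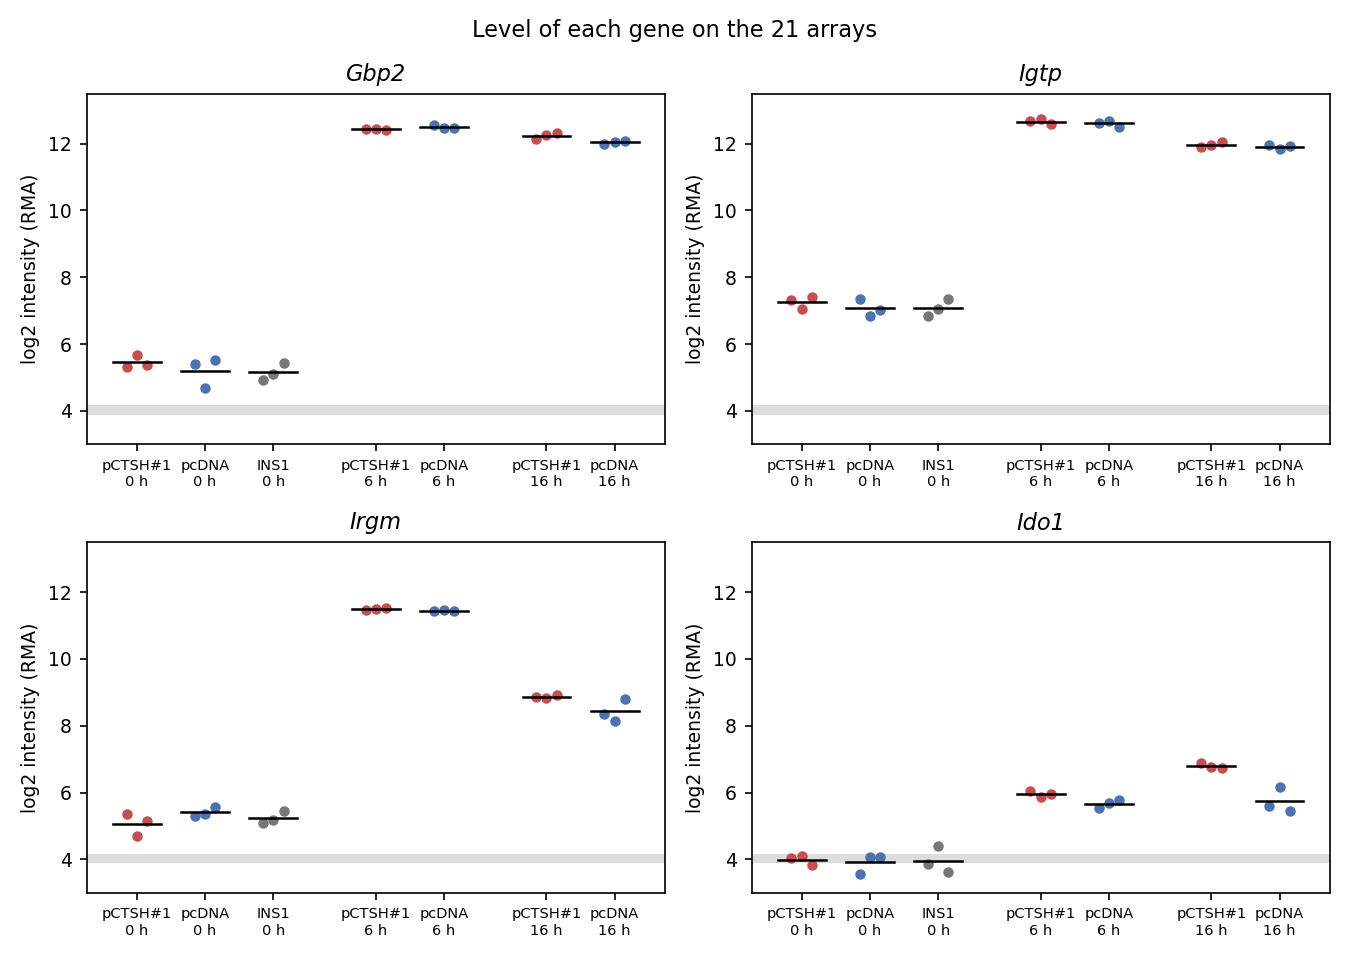
Log2 intensity of the 4 measured genes (vertical axis, RMA) on each of the 21 arrays, by line and cytokine time; points are arrays, black lines are means of 3, and the grey band spans the background of the arrays (3.88 to 4.17). Gbp2 and Igtp stay high at 16 h, Irgm drops to an intermediate level, and Ido1 starts at background and is highest in pCTSH#1 at 16 h.

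All 4 genes rose in both lines at both times. At 6 h against 0 h, 4 of 4 passed limma's test (Benjamini-Hochberg adjusted p below 0.05) as higher in pCTSH#1, where 10.7% of all 31042 probe sets did, and 4 of 4 in pcDNA, where 12.1% did. At 16 h against 0 h, 4 of 4 were higher in pCTSH#1 (20.8% of all probe sets) and 4 of 4 in pcDNA (21.3%). Since 3 arrays at 0 h serve both times in a line, the 6 h and 16 h values of a line are not independent of each other.

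Gbp2, a guanylate-binding protein, was above background at 0 h and more than 100 times brighter at 6 h. In pCTSH#1 its level was 5.33, 5.68 and 5.37 at 0 h, 12.45, 12.45 and 12.42 at 6 h, and 12.14, 12.26 and 12.32 at 16 h. In pcDNA it was 5.39, 4.69 and 5.53 at 0 h, 12.54, 12.46 and 12.46 at 6 h, and 11.98, 12.05 and 12.09 at 16 h. Untransfected cells read 4.93, 5.10 and 5.43, within the range of the transfected lines at 0 h, while no array with cytokines came near those values. At 6 h the difference from 0 h was 6.98 ± 0.16 (log2, standard error, 126-fold, adjusted p = 1.73e-17) in pCTSH#1 and 7.29 ± 0.16 (156-fold, adjusted p = 8.13e-18) in pcDNA. Among the 13438 genes these were the 10th and 8th highest differences, a description of genes that were chosen with such results known. At 16 h the difference from 0 h was 6.78 ± 0.16 (adjusted p = 2.29e-17) in pCTSH#1 and 6.84 ± 0.16 (adjusted p = 2.09e-17) in pcDNA.

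Igtp, an IRG of the class that in the mouse holds the effector IRGs inactive on the cell's own membranes, behaved likewise from a higher starting level. In pCTSH#1 it read 7.32, 7.06 and 7.42 at 0 h, 12.67, 12.73 and 12.57 at 6 h, and 11.91, 11.95 and 12.03 at 16 h. In pcDNA it read 7.36, 6.85 and 7.03 at 0 h, 12.63, 12.69 and 12.50 at 6 h, and 11.96, 11.84 and 11.93 at 16 h. The lines overlapped at every time, untransfected cells (6.83, 7.05 and 7.34) spanned nearly the same range as the lines at 0 h, and the times did not overlap. The 6 h difference was 5.39 ± 0.13 (42.0-fold, adjusted p = 3.01e-17) in pCTSH#1 and 5.53 ± 0.13 (46.0-fold, adjusted p = 2.09e-17) in pcDNA. At 16 h it was 4.70 ± 0.13 (adjusted p = 2.13e-16) in pCTSH#1 and 4.83 ± 0.13 (adjusted p = 1.46e-16) in pcDNA. A second, dimmer Igtp probe set gave 6.17 and 5.17 in pCTSH#1 and 5.71 and 4.66 in pcDNA at 6 and 16 h. Another probe set, which carries both the Irgm2 and the Igtp symbol, was left out, and reads that fit several of these related GTPases cannot be assigned with certainty by any of them.

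Irgm, another IRG of the regulatory class in the mouse, rose as steeply by 6 h and had lost most of that level by 16 h. In pCTSH#1 it read 5.35, 4.69 and 5.15 at 0 h, 11.46, 11.49 and 11.53 at 6 h, and 8.86, 8.83 and 8.92 at 16 h. In pcDNA it read 5.31, 5.36 and 5.58 at 0 h, 11.43, 11.46 and 11.43 at 6 h, and 8.35, 8.13 and 8.80 at 16 h. Untransfected cells (5.10, 5.17 and 5.45) fell inside the span of the transfected lines at 0 h, and the 16 h arrays of pcDNA lay further apart (SD 0.34) than those of pCTSH#1 (SD 0.04). The 6 h difference was 6.43 ± 0.15 (86.3-fold, adjusted p = 3.12e-17, 15th highest of 13438 genes) in pCTSH#1 and 6.02 ± 0.15 (65.0-fold, adjusted p = 8.4e-17, 21st highest) in pcDNA. At 16 h it was 3.81 ± 0.15 (13.98-fold, adjusted p = 7.49e-14) in pCTSH#1 and 3.01 ± 0.15 (8.07-fold, adjusted p = 2.27e-12) in pcDNA.

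Ido1 was at the background used here without cytokines and lay above it with them. In pCTSH#1 it read 4.04, 4.09 and 3.83 at 0 h, 6.03, 5.86 and 5.97 at 6 h, and 6.88, 6.76 and 6.72 at 16 h. In pcDNA it read 3.57, 4.08 and 4.08 at 0 h, 5.54, 5.68 and 5.78 at 6 h, and 5.61, 6.16 and 5.45 at 16 h. At 0 h 2 of 3 arrays of each transfected line and of untransfected cells (3.86, 4.40 and 3.61) were at background, so folds from 0 h are lower bounds. This depends on the nonspecific control, chosen after values were seen. By the control planned first, 0 of 3 pCTSH#1, 1 of 3 pcDNA and 0 of 3 untransfected arrays were at background at 0 h, and no bound would apply. Ido1 was at least 3.69-fold higher at 6 h and at least 6.58-fold higher at 16 h in pCTSH#1. In pcDNA it was at least 3.03-fold higher at 6 h and at least 3.19-fold higher at 16 h. The fitted log2 differences, which are not sizes here, were 1.97 and 2.80 in pCTSH#1 (adjusted p = 5.68e-08 and 9.29e-11) and 1.76 and 1.83 in pcDNA (adjusted p = 2.35e-07 and 4.81e-08), each ± 0.18.

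**Figure D2:**
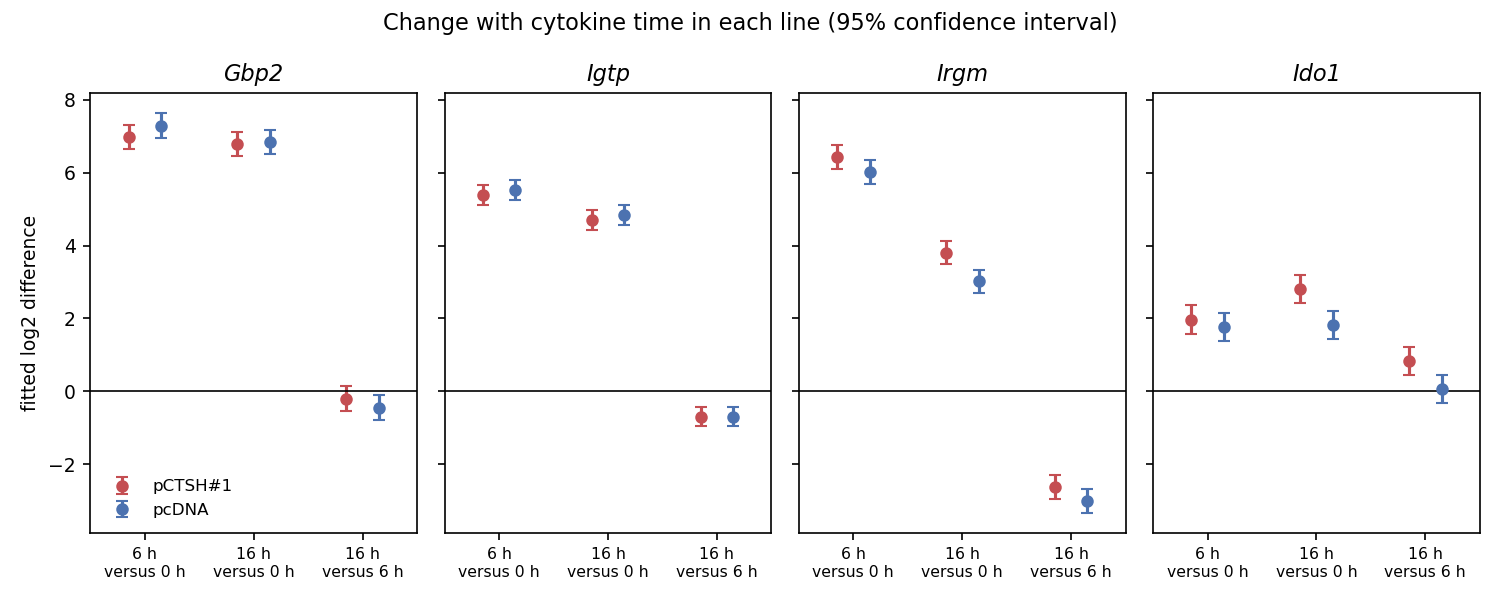
Fitted log2 difference (vertical axis) of each gene for 6 h against 0 h, 16 h against 0 h and 16 h against 6 h, in pCTSH#1 (red) and pcDNA (blue); bars are 95% confidence intervals of limma's model. From 6 to 16 h Irgm fell by 2.63 in pCTSH#1 and by 3.01 in pcDNA, Igtp fell by 0.69 in both, and the change of Ido1 passed in pCTSH#1 but not in pcDNA, although the difference between these changes did not pass its own test.

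Between 6 and 16 h the genes parted. In pCTSH#1, 2 of 4 fell (21.9% of all probe sets were lower), 1 rose (19.4% were higher) and 1 did not pass. In pcDNA, 3 of 4 fell (22.0% of all probe sets) and none rose (20.2%). Irgm fell by 2.63 ± 0.15 in pCTSH#1 (adjusted p = 4.72e-11) and by 3.01 ± 0.15 in pcDNA (adjusted p = 6.37e-12), which left 16.2% of the 6 h intensity in pCTSH#1 and 12.4% in pcDNA. These were the 38th and 19th lowest differences of 13438 genes. Igtp kept far more, 61.8% in each line, with a change of -0.69 ± 0.13 in both (adjusted p = 0.00016 in pCTSH#1 and 0.000153 in pcDNA); its second probe set gave -0.997 and -1.04.

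Gbp2 kept the most of the 3 GTPases, 87.2% in pCTSH#1 and 73.2% in pcDNA. Its change of -0.20 ± 0.16 in pCTSH#1 did not pass (adjusted p = 0.373, 95% interval -0.53 to 0.14). In pcDNA Gbp2 fell by 0.45 ± 0.16 (adjusted p = 0.0292), a call that did not hold when arrays were centred on their medians (-0.37, adjusted p = 0.0591) or when any 6 h array or the first or second 16 h array of pcDNA was left out (adjusted p = 0.0551 to 0.0821). Ido1 rose in pCTSH#1 by 0.83 ± 0.18 (1.78-fold, adjusted p = 0.000888), with no overlap between its 6 h and 16 h arrays. In pcDNA its 16 h arrays spanned its 6 h arrays, and the difference of 0.07 ± 0.18 did not pass (adjusted p = 0.805, interval -0.31 to 0.46). The difference between the lines in these 6 to 16 h changes passed for 0 of 4 genes (0.267% of all probe sets), and was 0.76 ± 0.26 for Ido1 (adjusted p = 0.282, interval 0.21 to 1.30).

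**Figure D3:**
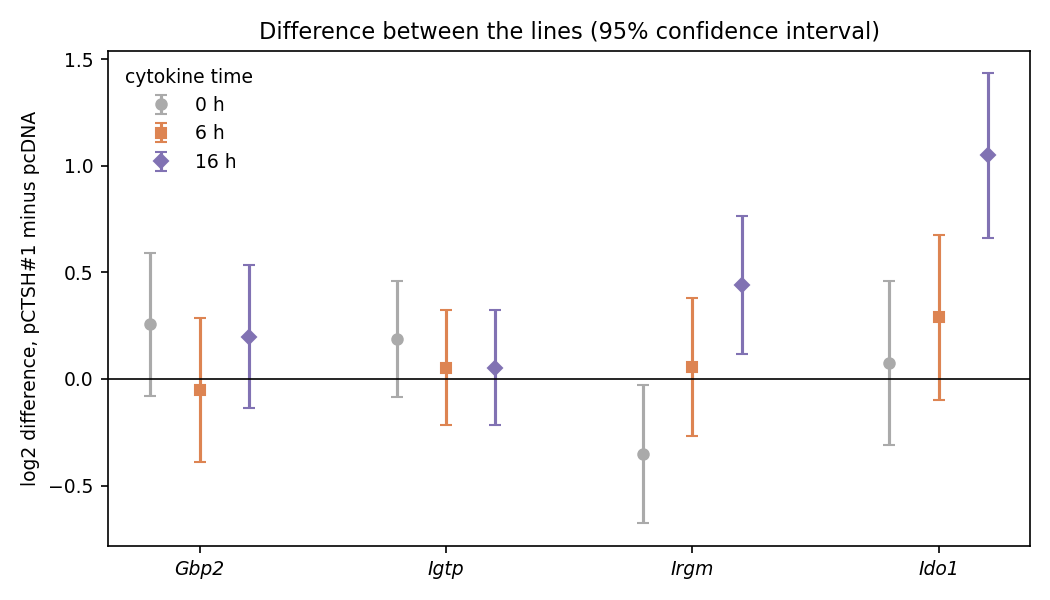
Log2 difference of pCTSH#1 minus pcDNA (vertical axis) for each gene at 0, 6 and 16 h, with 95% confidence intervals of limma's model. Ido1 at 16 h, at 1.05, is the 1 value that passed after adjustment, Irgm at 16 h is 0.44, and the Gbp2 and Igtp intervals all include 0.

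The lines were compared at each time to ask whether the clone that overexpresses CTSH differed in these genes. None of 4 passed at 0 h (1.87% of all probe sets did) or at 6 h (2.86%), and 1 of 4, Ido1, passed at 16 h (3.80% in either direction and 2.33% as higher). At 6 h Gbp2 differed by -0.05 ± 0.16 (interval -0.39 to 0.28), Igtp by 0.05 ± 0.13 (-0.22 to 0.32) and Irgm by 0.05 ± 0.15 (-0.27 to 0.38), so differences beyond about those bounds were not seen. By limma at an unadjusted p below 0.05, Irgm alone was reached at 0 h (-0.35) and none of the 4 at 6 h.

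At 16 h Ido1 read 6.79 ± 0.08 in pCTSH#1 and 5.74 ± 0.37 in pcDNA (SD, n = 3 each). Every pCTSH#1 array was above every pcDNA array, by a mean of 1.05 ± 0.18 (2.07-fold, adjusted p = 0.00204 by limma, interval 0.66 to 1.43, 21st highest of 13438 genes). The call did not hold when the model was fitted on the 6 arrays compared (adjusted p = 0.0508), and it held when any array was left out, with values of 0.90 to 1.26. At 6 h the arrays of the lines did not overlap either, at 5.95 ± 0.09 in pCTSH#1 and 5.67 ± 0.12 in pcDNA (SD, n = 3 each), but the difference of 0.29 ± 0.18 did not pass (adjusted p = 0.618). How many of all probe sets lacked overlap between the lines was not counted, so lack of overlap is a description only. Cd68, a lysosomal glycoprotein used as a macrophage marker, averaged 4.65, 4.80 and 5.89 at 0, 6 and 16 h in pCTSH#1. In pcDNA it averaged 4.69, 4.85 and 5.52. Lyz2, another leukocyte marker, averaged 4.26, 4.34 and 4.86 in pCTSH#1 and 4.14, 4.32 and 4.63 in pcDNA. At 16 h against 0 h, 3 of 9 leukocyte markers passed as higher in pCTSH#1 and 2 of 9 in pcDNA, where 20.8% and 21.3% of all probe sets did. Between the lines 0 of 9 leukocyte markers passed at 16 h (3.80% of all probe sets did). The mean of the 9 leukocyte markers was 3.97 to 4.06 on pCTSH#1 arrays and 3.89 to 3.97 on pcDNA arrays at 16 h, with Ptprc, Itgam, Csf1r and Cd14 at or near background. At 0 h that mean was 3.76 to 3.80 in pCTSH#1 and 3.73 to 3.79 in pcDNA, and its part in the Ido1 difference was not tested.

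Irgm at 16 h also lay higher on every pCTSH#1 array (8.87 ± 0.04) than on any pcDNA array (8.43 ± 0.34; SD, n = 3 each). The difference of 0.44 ± 0.15 did not pass (adjusted p = 0.138, interval 0.12 to 0.76). It passed when the third pcDNA array at 16 h, the highest of its group, was left out (0.63, adjusted p = 0.0201). Gbp2 differed by 0.20 ± 0.16 at 16 h (adjusted p = 0.631, interval -0.14 to 0.54), again with no overlap between the arrays. At 6 h its arrays did not overlap either, but there pcDNA (mean 12.49) lay above pCTSH#1 (mean 12.44). The share of all probe sets without overlap between the lines was not counted. Igtp differed by 0.05 ± 0.13 at 16 h (adjusted p = 0.905, interval -0.22 to 0.32).

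The differences between the lines' responses, which test whether the change since 0 h was unequal, passed for 0 of 4 genes at 6 h (0.103% of all probe sets) and for 0 of 4 at 16 h (0.213%). At 16 h the response of Irgm was 0.79 ± 0.22 larger in pCTSH#1 (unadjusted p = 0.0018, adjusted p = 0.202). It reached an adjusted p of 0.0467, at 0.98, without the third pcDNA array at 16 h. For Ido1 the fitted difference of 0.97 ± 0.26 (unadjusted p = 0.0014, adjusted p = 0.178) rests on 0 h arrays at background. By limma at an unadjusted p below 0.05, none of the 4 genes was reached for the 6 h response. Against untransfected cells at 0 h, 0 of 4 passed in pCTSH#1 (2.57% of all probe sets; largest difference 0.30 ± 0.16 for Gbp2, adjusted p = 0.496) and 0 of 4 in pcDNA (0.00966%; largest 0.18 ± 0.15 for Irgm), and none reached an unadjusted p below 0.05 in either.

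For Gbp2 and Igtp the 6 h groups were highest, the 16 h groups next and the 0 h groups lowest, and within each time the lines did not differ beyond the test. For Irgm the order was the same with a wide gap between 16 h and 6 h, since 16 h means of 8.87 in pCTSH#1 and 8.43 in pcDNA stood against 6 h means of 11.49 and 11.44. Ido1 had another order of means, with both pCTSH#1 groups with cytokines above both pcDNA groups. The mean of pCTSH#1 at 16 h was highest at 6.79, followed by pCTSH#1 at 6 h (5.95), pcDNA at 16 h (5.74) and pcDNA at 6 h (5.67). Of these, pCTSH#1 at 16 h differed by test from pCTSH#1 at 6 h and from pcDNA at 16 h. The lines did not differ by test at 6 h, nor did pcDNA at 16 h and at 6 h. No test compared pCTSH#1 at 6 h with pcDNA at 16 h, where the second array, at 6.16, lay above every pCTSH#1 array at 6 h. Over the 4 genes and both lines the SDs of replicates were 0.14 to 0.45 at 0 h, 0.02 to 0.12 at 6 h and 0.04 to 0.37 at 16 h.

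Across the 21 arrays Gbp2 and Igtp had a Pearson correlation of 0.996, Igtp and Irgm 0.946, Gbp2 and Irgm 0.922, Gbp2 and Ido1 0.928, Igtp and Ido1 0.908, and Irgm and Ido1 0.793. The arrays share groups and the step from 0 h to cytokines, so these values describe likeness over 7 groups and are no test. Among 4058 genes whose group means spanned at least 1 (log2), the genes most like Gbp2 were Abcg3l4 (0.9985), Irf1 (0.9984) and RT1-M3-1 (0.9983). Those most like Igtp were the chemokines Cxcl1 (0.9976) and Cxcl3 (0.9975), and Ifgga2l1 (0.9971). Those most like Irgm were Ccrl2 (0.9931), its relative Irgm2 (0.9921) and Rab19 (0.9914). Ido1 had less close company, with Plekhf2 (0.9658), Adgre5 (0.9656) and Phf11 (0.9617).

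Other GBPs, IRGs and dynamin-like GTPases were taken as a list of 12, of which 6 had a probe set. At 6 h 5 of 6 rose in each line, namely Gbp4, Gbp7, Irgm2, Mx1 and Mx2, where 10.7% of all probe sets were higher in pCTSH#1 and 12.1% in pcDNA. The median over the 6 was 5.34 in pCTSH#1 and 5.65 in pcDNA, against -0.04 over all probe sets in both. The same 5 passed as higher at 16 h in each line, and Irgq, an IRG-like gene, passed as lower (medians 5.44 in pCTSH#1 and 5.34 in pcDNA). Of all probe sets 20.8% were higher and 25.6% lower in pCTSH#1 at 16 h, and 21.3% and 25.1% in pcDNA. Irgm2, the neighbour of Igtp, had the falling course: 7.92, 12.73 and 11.01 at 0, 6 and 16 h in pCTSH#1 and 7.93, 12.67 and 10.90 in pcDNA. Between 6 and 16 h Irgm2 fell by 1.72 ± 0.10 in pCTSH#1 (adjusted p = 6.57e-11) and by 1.77 ± 0.10 in pcDNA (adjusted p = 3.98e-11). Gbp7 read 7.63, 12.74 and 12.09 in pCTSH#1 and 7.51, 12.78 and 11.84 in pcDNA, also lower at 16 h than at 6 h in both.

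The rest of that list took other courses after 6 h. Gbp4, at background at 0 h in pcDNA and pCTSH#1, was at least 40.6-fold higher at 6 h and 73.0-fold higher at 16 h in pCTSH#1, and at least 51.0-fold and 59.8-fold higher in pcDNA. Between 6 and 16 h it rose by 0.85 ± 0.16 in pCTSH#1 (adjusted p = 0.000238), against 0.23 ± 0.16 in pcDNA (adjusted p = 0.298), and the test of the difference between the lines gave 0.61 ± 0.23 (adjusted p = 0.349). Mx1, an antiviral dynamin-like GTPase, was at least 50.6-fold and 83.4-fold higher at 6 and 16 h in pCTSH#1, and at least 57.2-fold and 61.5-fold higher in pcDNA. Mx2 rose further between 6 and 16 h, by 0.91 ± 0.12 in pCTSH#1 (adjusted p = 2.21e-06) and by 0.49 ± 0.12 in pcDNA (adjusted p = 0.00175; 0.25 and 0.124 over the mean of its probe sets). Irgq read 9.17, 8.96 and 7.05 at 0, 6 and 16 h in pCTSH#1 and 9.14, 8.82 and 7.22 in pcDNA. No gene of the list passed as different between the lines at 0, 6 or 16 h (1.87%, 2.86% and 3.80% of all probe sets did). Mx1 at 16 h (0.46, adjusted p = 0.137) passed with the replicate number as a block (adjusted p = 0.0481). It also passed with array weights (0.59, adjusted p = 0.0343) and without the third pcDNA array (0.68, adjusted p = 0.0089). Gbp7 at 16 h (0.25, adjusted p = 0.136) passed with a trended, robust prior (adjusted p = 0.0389).

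Of 12 genes of interferon-gamma signalling, 10 had a probe set. At 6 h 8 of 10 rose in pCTSH#1 (10.7% of all probe sets were higher) and 9 of 10 in pcDNA (12.1%). At 16 h 9 of 10 rose in pCTSH#1 (20.8%) and 8 of 10 in pcDNA (21.3%). None was lower in these comparisons (medians 1.61 at 6 h in both lines, 1.05 at 16 h in both). Of all probe sets 16.0% in pCTSH#1 and 18.5% in pcDNA were lower at 6 h, and 25.6% and 25.1% at 16 h. Irf1, the transcription factor named above, stayed high like Gbp2, with 8.43, 12.82 and 12.60 at 0, 6 and 16 h in pCTSH#1 and 8.37, 12.80 and 12.62 in pcDNA. Socs1, a feedback inhibitor of JAK kinases, fell steeply after 6 h like Irgm, but came closer to its 0 h level than Irgm did. Socs1 read 4.09, 7.71 and 4.91 in pCTSH#1 and 4.10, 7.82 and 4.70 in pcDNA, and fell between 6 and 16 h by 2.80 ± 0.13 in pCTSH#1 (adjusted p = 2.12e-12) and by 3.12 ± 0.13 in pcDNA (adjusted p = 4.78e-13). Over the mean of its probe sets that fall was smaller, at -1.59 in both lines, and the 6 h difference from 0 h was 2.01 in pCTSH#1 and 1.96 in pcDNA. At 0 h 1 of 3 pCTSH#1 arrays and 2 of 3 pcDNA arrays read background for Socs1. Of the 2 JAK kinases listed, Jak1 read 10.51, 10.41 and 10.72 at 0, 6 and 16 h in pCTSH#1 and 10.64, 10.52 and 10.78 in pcDNA. Jak1 was named after its values were seen. Jak2, the other, rose by 3.09 ± 0.10 at 6 h in pCTSH#1 (adjusted p = 2.38e-15) and by 3.10 ± 0.10 in pcDNA (adjusted p = 2.08e-15). The receptor chains moved less than Jak2. Ifngr1 rose by 0.43 and 0.94 at 6 and 16 h in pCTSH#1 and by 0.32 and 0.85 in pcDNA. Ifngr2 rose by 1.42 and 0.58 in pCTSH#1 and by 1.08 and 0.27 in pcDNA. Irf9, a subunit of the complex that binds response elements, rose by 2.39 and 3.61 in pCTSH#1 and by 2.56 and 3.54 in pcDNA. None of the 10 passed as different between the lines at 0, 6 or 16 h (1.87%, 2.86% and 3.80% of all probe sets did).

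**Figure D4:**
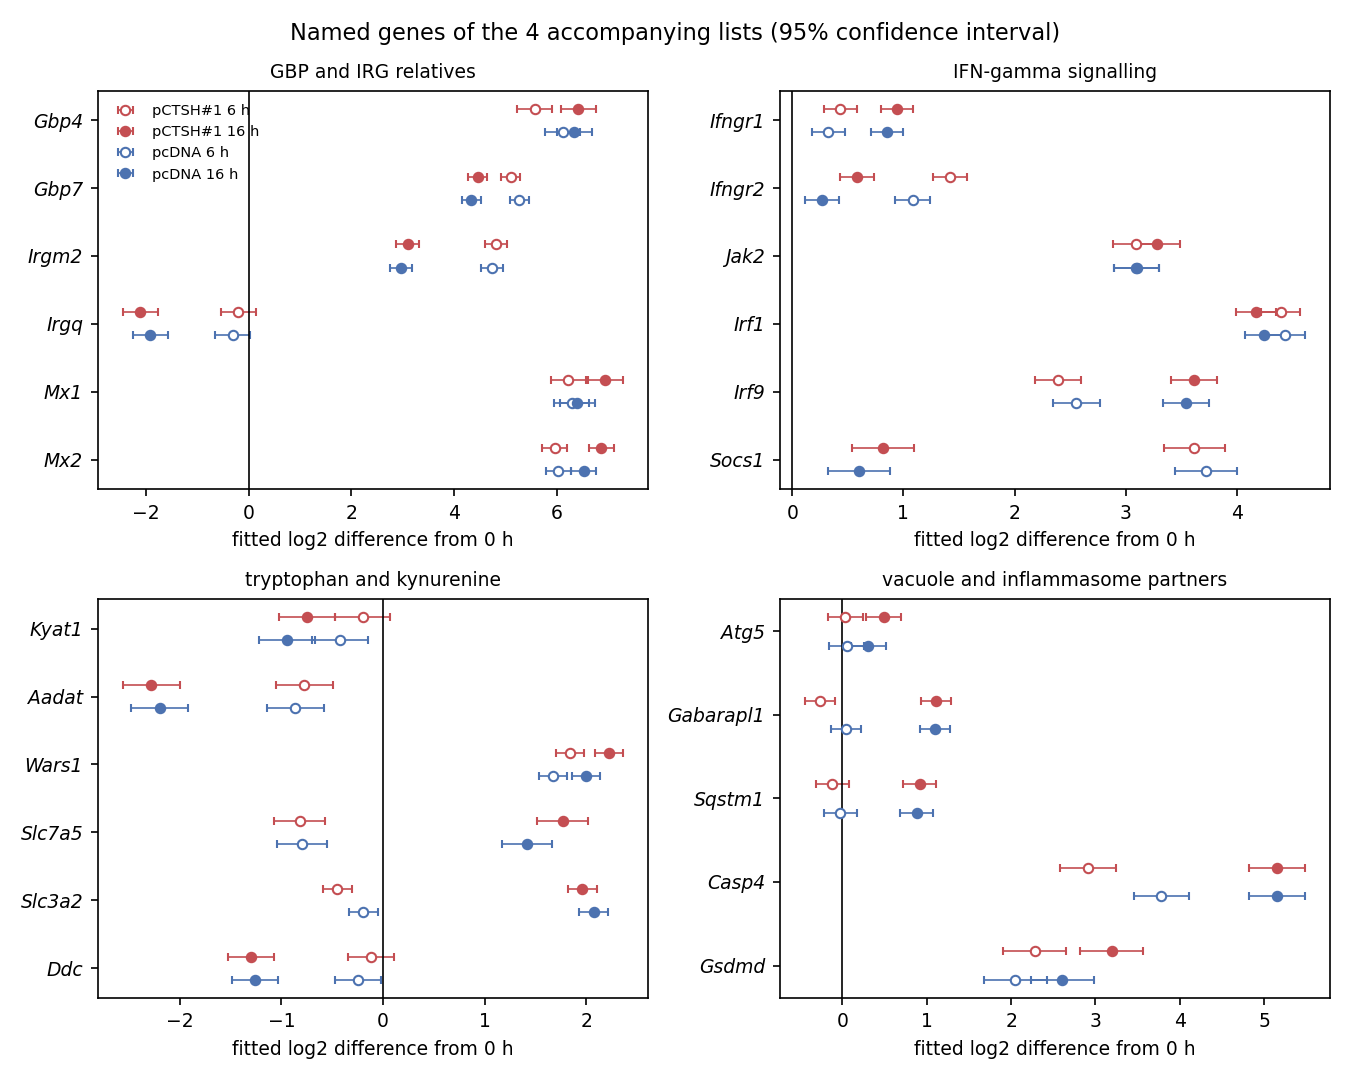
Fitted log2 difference from 0 h (horizontal axis) for named genes of 4 lists at 6 h (open) and 16 h (filled), pCTSH#1 above pcDNA, with 95% confidence intervals of limma's model. Values of Gbp4, Mx1 and Casp4, and of Socs1 in pcDNA, start from background and are compressed; Socs1 is near 3.7 at 6 h and under 1 at 16 h, and Slc7a5 and Slc3a2 are below 0 at 6 h and above it at 16 h.

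Tryptophan handling did not move as a block: of 22 genes listed, 17 had a probe set, and 6 of these read background on at least 15 arrays. At 6 h 2 rose and 3 fell in pCTSH#1, and 1 rose and 6 fell in pcDNA (medians -0.12 and -0.23). Of all probe sets 10.7% were higher and 16.0% lower in pCTSH#1, and 12.1% and 18.5% in pcDNA. The 2 became 1 without 0 h replicate 1 or 3 or any 6 h array of pCTSH#1. The 6 became 3 under cyclic loess and without 0 h replicate 1 or 6 h replicate 2 or 3 of pcDNA. The genes that rose at 6 h were Wars1 and Cyp1b1 in pCTSH#1 and Wars1 in pcDNA; those that fell were Aadat, Slc7a5 and Slc3a2 in both, and Kyat1, Tdo2 and Maoa in pcDNA. At 16 h 4 rose and 5 fell in pCTSH#1, and 3 rose and 5 fell in pcDNA (medians -0.05 and -0.07). Of all probe sets 20.8% were higher and 25.6% lower in pCTSH#1 at 16 h, and 21.3% and 25.1% in pcDNA. Wars1, Slc7a5 and Slc3a2 rose in both lines and Kmo in pCTSH#1, while Kyat1, Aadat, Ddc, Maoa and Tdo2 fell in both, with Kmo and Tdo2 at or near background. Wars1, the cytosolic enzyme that loads tryptophan onto its transfer RNA and a known interferon-gamma target, rose at both times. It read 9.78, 11.62 and 12.00 at 0, 6 and 16 h in pCTSH#1 and 10.03, 11.71 and 12.03 in pcDNA, with 6 h differences of 1.84 ± 0.07 (adjusted p = 1.58e-14) and 1.68 ± 0.07 (adjusted p = 5.91e-14). Slc7a5 and Slc3a2 encode the subunits of an amino acid transporter that carries tryptophan, and both were higher at 16 h.

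Slc7a5 read 8.38, 7.56 and 10.14 at 0, 6 and 16 h in pCTSH#1 and 8.61, 7.82 and 10.03 in pcDNA, so that it fell first (by 0.82 and 0.80) and then stood 1.77 and 1.42 above 0 h, all passing. Slc3a2 read 9.87, 9.42 and 11.83 in pCTSH#1 and 9.94, 9.75 and 12.02 in pcDNA. The early decrease of Slc3a2 passed in pCTSH#1 (-0.45, adjusted p = 3.01e-05) and, in pcDNA (-0.19, adjusted p = 0.0351), not when any of the 6 arrays was left out, under centring or cyclic loess, or with those 6 arrays fitted alone. Aadat and Kyat1, aminotransferases that turn kynurenine into kynurenic acid, were lower at 16 h. Aadat differed from 0 h by -2.28 ± 0.13 in pCTSH#1 (adjusted p = 1.68e-11) and by -2.20 ± 0.13 in pcDNA (adjusted p = 2.83e-11). Kyat1 differed by -0.75 ± 0.13 in pCTSH#1 (adjusted p = 6.22e-05) and by -0.94 ± 0.13 in pcDNA (adjusted p = 3.7e-06). Ddc, which makes serotonin from 5-hydroxytryptophan, fell by 1.30 in pCTSH#1 and by 1.26 in pcDNA at 16 h. Between the lines Slc3a2 was lower in pCTSH#1 at 6 h (-0.33 ± 0.07, adjusted p = 0.007), where 1.10% of all probe sets were lower. Its adjusted p was 0.051 when only the 6 arrays were fitted. No other gene of this list passed at 0, 6 or 16 h (1.87%, 2.86% and 3.80% of all probe sets did). Wars1 at 0 h (-0.25, adjusted p = 0.0553) passed under 4 alternatives, namely the brighter probe sets alone, a trended, robust prior, array weights and the mean of probe sets, with 0.00196 as the lowest adjusted p. Slc3a2 at 16 h (-0.19, adjusted p = 0.15) passed among the brighter probe sets alone (adjusted p = 0.0467).

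Partners of the GTPases at vacuoles and in the inflammasome were a list of 17, with 12 measured. At 6 h 3 rose in pCTSH#1 (Casp4, Gsdmd and Il18) and 2 in pcDNA (Casp4 and Gsdmd), where 10.7% and 12.1% of all probe sets were higher. In each line 1 fell, Gabarapl1 in pCTSH#1 and Gabarap in pcDNA, where 16.0% and 18.5% of all probe sets were lower. The count of genes that fell was 0 in both under cyclic loess, over the mean of a gene's probe sets and when only the arrays compared were fitted. It was also 0 in pCTSH#1 without 0 h replicate 1 or 2 or 6 h replicate 1 or 3, and in pcDNA under centring and without any 0 h array or 6 h replicate 1 or 2, and it was 2 in pCTSH#1 with a trended, robust prior. At 16 h 8 rose and 1 fell in pCTSH#1 and 7 rose and 2 fell in pcDNA (medians 0.54 and 0.33). Of all probe sets 20.8% were higher and 25.6% lower in pCTSH#1, and 21.3% and 25.1% in pcDNA. Under centring or cyclic loess 0 genes of the list fell in pCTSH#1 and 1 in pcDNA. Casp4, the caspase that in human and mouse cells senses bacterial lipopolysaccharide, was at background at 0 h and at least 6.27-fold and 29.6-fold higher at 6 and 16 h in pCTSH#1. In pcDNA Casp4 was at least 12.7-fold and 32.7-fold higher. Gsdmd, the pore-forming gasdermin that Casp4 cleaves, rose by 2.28 ± 0.18 and 3.20 ± 0.18 at 6 and 16 h in pCTSH#1 and by 2.05 ± 0.18 and 2.61 ± 0.18 in pcDNA. The cargo receptor Sqstm1 was higher at 16 h, by 0.92 ± 0.09 in pCTSH#1 (adjusted p = 6.03e-08) and by 0.88 ± 0.09 in pcDNA (adjusted p = 1.03e-07). Gabarapl1, of the ATG8 family that marks autophagic membranes, was higher by 1.11 ± 0.08 and 1.09 ± 0.08.

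Between the lines Casp4 was lower in pCTSH#1 at 6 h (1.10% of all probe sets were), at 6.78 ± 0.30 in pCTSH#1 and 7.80 ± 0.07 in pcDNA (SD, n = 3 each; difference -1.02 ± 0.16, adjusted p = 0.000679). At 16 h Casp4 read 9.02 ± 0.27 in pCTSH#1 and 9.16 ± 0.16 in pcDNA, a difference of -0.14 ± 0.16 (adjusted p = 0.748). Gabarapl1 was also lower in pCTSH#1 at 6 h (-0.47 ± 0.08, adjusted p = 0.00259). At 16 h 2 genes of this list passed as higher in pCTSH#1 (2.33% of all probe sets did), Atg7 (0.67 ± 0.15, adjusted p = 0.0131) and Casp1 (adjusted p = 0.0377). Both were named after their values were seen. Casp1 was at background on 1 of 3 pCTSH#1 and 3 of 3 pcDNA arrays, so its difference is a lower bound, at least 1.23-fold higher in pCTSH#1. The count of genes higher at 16 h was 0 without the third pCTSH#1 array or the first or second pcDNA array and when only the 6 arrays were fitted, and 1 without the first pCTSH#1 array and with array weights.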

How the data were processed

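The authors deposited log2 intensities per probe set. Per the submitters' processing notes the tools were RMA, affy and limma, with no version given. The values were used unchanged. After removal of 95 control probe sets from 31137, all 31042 others entered the test, dim ones included. GEO's platform table paired 19063 of them with 1 gene symbol and 572 with several, and 11407 are not in it. limma (3.58.1, R 4.3.3) fitted 1 model of 7 group means to 21 arrays and gave 14 two-sided comparisons, with Benjamini-Hochberg adjustment over all probe sets and calls at an adjusted p below 0.05. A value after ± is the model's standard error, or an SD where so named.

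Groups come from the sample titles. The labels number the replicates without saying that they are separate cultures, so a p-value here reflects only how far these arrays differ, which may be technical, and 3 arrays per group limit the precision. All members and lists were chosen with earlier results of these data known. All members were described in every comparison, with list genes chosen by role and the 3 most similar genes per member. Background was planned as the tryptophan synthesis control (3.41 to 3.99 over arrays), for a bacterial transcript that is not in the labelling or hybridization spike mixes. The nonspecific control (3.88 to 4.17) replaced it after values were seen, because Ido1 at 0 h lay at the nonspecific control. A group with 2 of 3 arrays at or under the nonspecific control gives lower bounds. Each is the mean of the brighter group against the higher of background and reading on each array. By the planned control Ido1, Gbp4, Casp4 and Socs1 met this rule in neither transfected line at 0 h. Correlations of residuals between arrays of equal number were all above 0.1 in 2 of 21 pairs of groups (range -0.0903 to 0.244). With 3 arrays per group this cannot settle whether arrays of equal number share a culture or a day. Tested on simulated data for pCTSH#1 against pcDNA at 16 h over 31042 probe sets, the method recovered 49% of 100 changes of log2 0.5 and 96% of 100 changes of log2 1. It also called 10 unchanged probe sets. The simulated noise was normal with 1 SD per probe set in all groups, whereas the measured SDs of Ido1 and Irgm differed between these 2 groups. Figures were made in Python 3.11.15 (matplotlib 3.10.9). Alternatives were the replicate block, median centring, cyclic loess, the brighter 50% of probe sets, trend and robust eBayes, array weights, only the arrays compared, the mean of a gene's probe sets, and each array left out in turn; those for the lists were added after the values were seen.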

Additional observations from a re-analysis of the deposited data

How the results depend on the processing

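Of 856 alternative values of the 4 measured genes, 847 kept their side of the threshold, 7 lost a call, 2 gained one and none reversed a called direction. Differences that had not passed changed sign in 28 of the values. Under the replicate block, the number of the 4 genes called stayed at 4 for each comparison with 0 h in a line, at 3 for each from 6 to 16 h, and at 1 for pCTSH#1 against pcDNA at 16 h. That last count was 0 when only the arrays compared were fitted, and 1 to 2 when 1 array was left out (2, with Irgm, without the third pcDNA array at 16 h). The count for the lines' 0 to 16 h responses was 0 to 1 when 1 array was left out (1, Irgm, without that same array). The cause was not tested, except that fitting fewer arrays leaves fewer degrees of freedom.

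Among all probe sets, the number called between the lines was 582 at 0 h (284 to 739 over the alternatives), 887 at 6 h (531 to 1737) and 1181 at 16 h (193 to 1528). For the lines' responses it was 32 at 6 h (17 to 65), 66 at 16 h (30 to 120) and 83 from 6 to 16 h (41 to 212). Against INS1 it was 797 for pCTSH#1 (366 to 937) and 3 for pcDNA (0 to 5). Scaling moved the share of calls that were higher by over 10 points for 6 h against 0 h under cyclic loess, to 51.9% in place of 40.1% in pCTSH#1 and 51.6% in place of 39.6% in pcDNA, and for 16 h against 6 h in pCTSH#1 under centring, to 57.9% in place of 47%. Of 1628 list counts, 68 moved. Of 4922 values of named list genes, 44 lost a call, 23 gained one and none reversed; among these Irf1 at 16 h against 6 h in pCTSH#1 (-0.22, adjusted p = 0.0438) is not described as changed.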
